A study of Mus musculus with 7 samples.

Results

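Pericytes and vascular smooth muscle cells, together called mural cells, wrap the vessels of the brain, and 10 genes by which they are commonly recognised were followed in sorted cells of the postnatal mouse cerebellum. The genes were Pdgfrb, Rgs5, Kcnj8, Abcc9, Vtn, Acta2, Tagln, Myh11, Anpep and Tbx18. They were chosen by name, and every probe set that the platform annotation gives to exactly 1 of them was taken, which made 21 of the 45037 probe sets that are not controls and 10 of the 18193 annotated genes. RNA came from granule neuron precursors, the dividing cells that form the granule neurons of the cerebellum, of Math1-Cre/Ptc-loxp/Nestin-CFP mice. In these mice the Math1 promoter drives Cre in the granule lineage, where the floxed Ptch1, an inhibitory receptor of Hedgehog signalling, is the target. Both fractions carry all of these alleles, and they differ in whether the cells sorted as positive for the Nestin-CFP reporter: 4 Nestin-positive arrays (replicates 1, 3, 4 and 5) were set against 3 Nestin-negative arrays (replicates 1, 4 and 5). The cells were untreated and not cultured. Their age is postnatal day 7 in the sample labels, which call the tissue medulloblastoma, and postnatal day 4 in the series text. The labels do not say whether the samples came from separate animals, so p-values rest on the spread between these samples, which may be technical.

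Mural cells are recruited to new vessels by platelet-derived growth factor from the endothelium, which acts on the receptor that Pdgfrb encodes. Pericytes of brain capillaries carry little contractile protein, whereas smooth muscle cells of arterioles carry much of it, and the genes Acta2, Tagln and Myh11 belong to that contractile set. The transcription factor Srf, with its coactivator myocardin, drives contractile genes through a sequence named the CArG box. In some Nestin reporter mice pericytes carry the reporter too. None of these 10 genes marks the granule lineage.

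Regulatory sequence was available from RefSeq (build GRCm38.p6) for 7 of the 10 genes, and the 250 bases before the transcript start that its promoter table uses for each gene were searched on both strands for the CArG box, whose pattern reads the same on either strand. Pdgfrb, Tagln and Myh11 had no promoter there, so of the contractile genes only Acta2 was searched. None of the 7 promoters held the exact box, which 1.47% of the 32851 promoters of that length hold. With 1 of its 10 letters allowed to differ, a looser rule chosen after the exact one matched none, 3 of the 7 held a match, against 18.6% of all promoters. For 5 of the 7 genes that window lies outside the annotated gene. For Acta2 212 of its 250 bases, and for Abcc9 all 250, lie inside the gene as annotated with all its transcripts, so for these genes the window does not precede every annotated start. Tbx18 and Kcnj8 are shown because they are the members with a match in a window outside the gene, and capitals mark the match, which is a description of letters and no evidence of a bound factor. Both are written 5′ to 3′ on the minus strand, on which the genes lie, at chr9:87731261-87731510 (Tbx18) and chr6:142571615-142571864 (Kcnj8).
Tbx18: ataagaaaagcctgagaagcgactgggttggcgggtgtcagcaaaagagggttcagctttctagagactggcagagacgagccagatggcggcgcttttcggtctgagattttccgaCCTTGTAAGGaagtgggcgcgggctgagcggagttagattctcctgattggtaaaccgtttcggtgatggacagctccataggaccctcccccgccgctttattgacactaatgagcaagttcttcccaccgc
Kcnj8: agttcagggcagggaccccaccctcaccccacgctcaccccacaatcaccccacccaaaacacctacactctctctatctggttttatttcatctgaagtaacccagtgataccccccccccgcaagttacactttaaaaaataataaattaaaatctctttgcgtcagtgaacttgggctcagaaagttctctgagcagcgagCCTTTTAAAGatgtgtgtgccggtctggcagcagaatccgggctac
In Tbx18 the match begins 133 bases before the start, and in Kcnj8 it begins 46 bases before it. Of Acta2, which holds 2 matches, only those are shown, again in capitals, and they begin 84 and 34 bases before the start in the table.
Acta2, match farther from the start: CCCTATATGG
Acta2, match nearer to the start: CCTTGTTTGG

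Mural genes were lower in the Nestin-positive member of nearly every pair of same-numbered arrays, but the arrays of one fraction differed so much among themselves that the fractions overlapped for most genes. Pdgfrb, Rgs5, Vtn, Acta2, Kcnj8 and Tbx18 were lower in all 3 pairs on their brightest probe set. In the pairs of replicates 4 and 5, whose signals for these 6 probe sets were all at or above the median of their array, the differences lay between 2.74-fold and 7.62-fold. Over all 21 probe sets, 15 were lower in all 3 pairs. Of the 15, 9 were among the 11 bright enough to be tested. Over all probe sets tested, 18.7% were lower in all 3 pairs. The other 6 were too dim for a test, and no share over all dim probe sets was computed. Both Nestin-positive replicate 1 and Nestin-negative replicate 1 were low within their fraction for most of these genes, and replicates 4 and 5 were high in both. In bulk RNA of this kind, fewer mural cells and less RNA of these genes per cell cannot be told apart.

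A signal under the median of its array (64.4 to 94.5 over the 7 arrays) was treated as dim, since MAS5 signals in that range give noisy ratios. At or above the median were 2, 1, 10 and 9 of the 21 probe sets on Nestin-positive replicates 1, 3, 4 and 5, against 6, 14 and 15 on Nestin-negative replicates 1, 4 and 5. Of the 21, 6 were dim on every array. Tests were confined to probe sets that reached the median on at least 3 of the 7 arrays, which 11 of the 21 did, from 7 of the 10 genes. Tagln, Myh11 and Anpep had no such probe set. None of the 11 passed on Nestin-negative arrays alone, but for some of them those arrays supplied most of the bright values, so counts over the 11 describe these probe sets and not all members.

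Limma without a block called 0 of the 11 member probe sets at an adjusted p of 0.05, with 7 at an unadjusted p under 0.05; of all 23585 probe sets tested it called 0% lower (2283 at an unadjusted p under 0.05 in either direction). Adjusted p-values of the 11 lay between 0.264 and 0.857. The log2 change was negative for all 11 and its median was -2.27, against 0.01 over all probe sets tested. With the replicate number as a block, limma called 9 of the 11 lower and 0 higher, where it called 3.13% of all probe sets tested lower. The median log2 change in that fit was -1.93 for the 11, against 0.00 over all. The 9 belong to Pdgfrb, Rgs5, Kcnj8, Vtn, Acta2 and Tbx18. Groups did not overlap for 2 of the 11, where 6.68% of all probe sets tested had lower Nestin-positive arrays without overlap, and 9 of the 11 were lower in all 3 pairs, against 18.7% of all. All these counts and shares are a description, since the members were chosen with earlier results of these data known. Below, "fell" refers to the fit with the block, whose pairing rests on the data and not on a statement in the labels. Of the 13.4 degrees of freedom in that fit, only 2 come from a probe set's own values. Its p-values and SEs thus rest mostly on the variance shared over all probe sets.

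**Figure D1:**
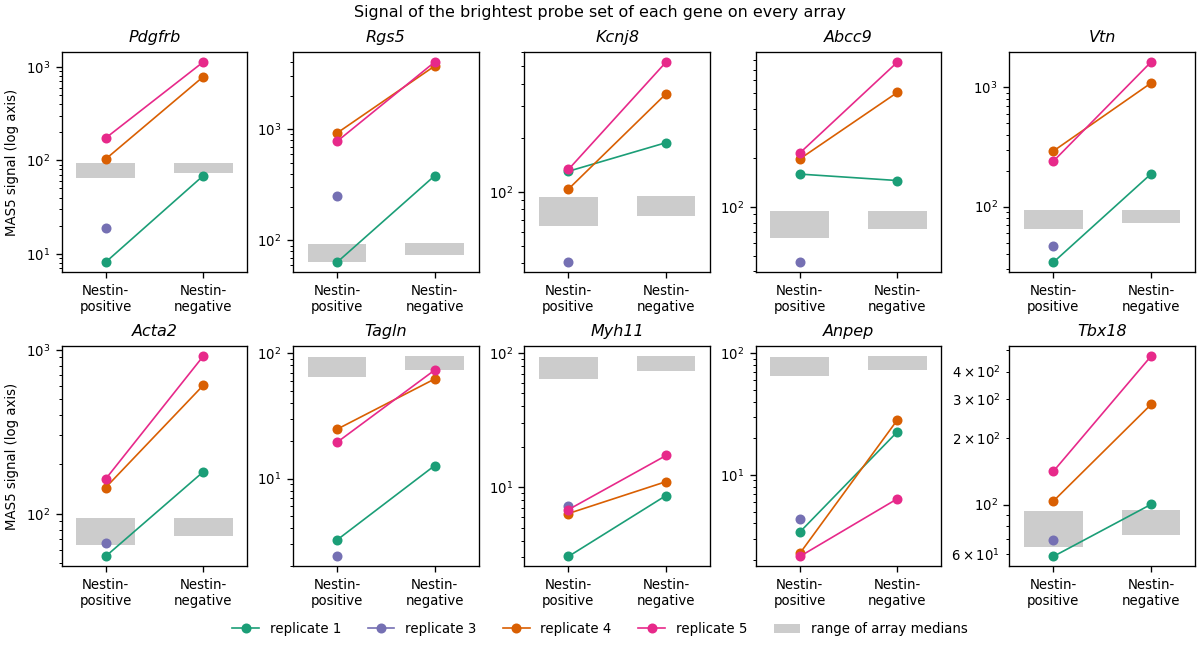
MAS5 signal on a log axis for the brightest probe set of each of the 10 genes, with Nestin-positive arrays on the left and Nestin-negative arrays on the right of each panel; each point is 1 array, lines join arrays of the same replicate number, and the grey bars span the array medians of each fraction. For 9 of the 10 genes every line climbs to the right, from dim or moderate Nestin-positive signals to higher Nestin-negative signals, while for Abcc9 the line of replicate 1 is nearly level; Myh11 and Anpep stay under the grey bars throughout.

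Pdgfrb, the receptor through which endothelial platelet-derived growth factor holds mural cells on the vessel, had signals of 8.13, 18.7, 103 and 173 in Nestin-positive replicates 1, 3, 4 and 5, against 68.5, 783 and 1125 in Nestin-negative replicates 1, 4 and 5 (brightest probe set). The fractions overlapped, because Nestin-negative replicate 1 lay under Nestin-positive replicates 4 and 5. Within the pairs of replicates 4 and 5 the Nestin-positive signal was 7.62-fold and 6.52-fold lower, while both signals of replicate 1 were dim. Pdgfrb fell by 2.90 ± 0.22 (SE) on the log2 scale with the block (adjusted p = 1.4e-05). Without the block its log2 change was -3.28 ± 1.30 (SE, adjusted p = 0.469). The size of this fall is uncertain, since 2 Nestin-positive arrays and Nestin-negative replicate 1 were dim: with dim values raised to the array median the blocked fall was 3.69-fold. The second Pdgfrb probe set was dim on all 4 Nestin-positive arrays and on Nestin-negative replicate 1, and reached 146 and 161 on Nestin-negative replicates 4 and 5.

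Rgs5, a regulator of G protein signalling that is abundant in brain pericytes, showed the same pattern at higher signal. Its brightest probe set gave 63.6, 250.4, 925 and 778 in Nestin-positive replicates 1, 3, 4 and 5, against 382, 3712 and 4028 in Nestin-negative replicates 1, 4 and 5. Nestin-negative replicate 1 again lay within the Nestin-positive range, and only Nestin-positive replicate 1 was dim. Rgs5 fell by 2.32 ± 0.13 (SE) on the log2 scale with the block (adjusted p = 1.2e-06), and 4.39-fold with dim values raised. Without the block the log2 change was -2.45 ± 1.12 (SE, adjusted p = 0.543). Of its other 3 probe sets, the next in brightness fell 4.48-fold with the block (adjusted p = 6.5e-05), and 2.44-fold with dim values raised (adjusted p = 0.0419). The one after it fell 3.28-fold with the block (adjusted p = 0.0014), and 2.39-fold with dim values raised (adjusted p = 0.0465). The last was not tested, and on replicate 1 it was higher in Nestin-positive than in Nestin-negative cells (32.5 against 19.4), both dim.

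Vtn, which encodes the adhesive glycoprotein vitronectin and is made by brain pericytes, had signals of 34.2, 46.9, 291 and 239.5 in Nestin-positive replicates 1, 3, 4 and 5, against 188, 1080.2 and 1619 in Nestin-negative replicates 1, 4 and 5 (brightest probe set). Nestin-positive replicates 4 and 5 exceeded Nestin-negative replicate 1, while each was lower than its own partner. The within-pair differences were 3.71-fold and 6.76-fold for replicates 4 and 5, and in replicate 1 the Nestin-positive signal was dim. Vtn fell by 2.37 ± 0.18 (SE) on the log2 scale with the block (adjusted p = 1.7e-05), and 3.69-fold with dim values raised. Without the block the log2 change was -2.75 ± 0.98 (SE, adjusted p = 0.412). The dimmer of its probe sets fell 3.81-fold with the block (adjusted p = 0.0055), and 2.50-fold with dim values raised (adjusted p = 0.0415).

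Kcnj8 and Abcc9 encode the pore and the sulfonylurea receptor subunit of an ATP-sensitive potassium channel of mural cells, and for both the pair of replicate 1 differed least. This was also so for the brightest probe sets of Acta2 and Tbx18. Kcnj8 had signals of 130.0, 40.5, 103 and 133 in Nestin-positive replicates 1, 3, 4 and 5, against 188, 351 and 528 in Nestin-negative replicates 1, 4 and 5 (its one probe set). Every Nestin-positive array lay below every Nestin-negative array, yet the pair of replicate 1 differed by only 1.44-fold, against 3.40-fold and 3.97-fold in the pairs of replicates 4 and 5. Kcnj8 fell by 1.43 ± 0.25 (SE) on the log2 scale with the block (adjusted p = 0.0053), against -1.82 ± 0.51 (SE) without it (adjusted p = 0.278).

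Abcc9 had signals of 159, 45.5, 197 and 214 in Nestin-positive replicates 1, 3, 4 and 5, against 145, 507 and 780 in Nestin-negative replicates 1, 4 and 5 (brightest probe set). Nestin-positive replicate 1 was slightly above its partner, whereas replicates 4 and 5 were 2.57-fold and 3.64-fold lower than theirs. The log2 change was -1.03 ± 0.28 (SE) with the block (adjusted p = 0.0567) and -1.54 ± 0.70 (SE) without it (adjusted p = 0.543), so this gene passed neither fit. Leaving out a pair, which leaves 2, gave blocked log2 changes of -1.61 without replicate 1 (adjusted p = 1.1e-10), -0.87 without replicate 4 (adjusted p = 0.0374) and -0.62 without replicate 5 (adjusted p = 0.221), so the call turns on which pair is left out. With 2 pairs left, these p-values rest even more on the variance shared over all probe sets than those of the full blocked fit. They hardly measure the spread of Abcc9 itself. The second in brightness moved in opposite directions between pairs, with Nestin-positive minus Nestin-negative log2 differences of 2.74, -3.89 and -0.92 for replicates 1, 4 and 5. A last probe set was dim on every array. Over the 7 arrays the brightest probe sets of Kcnj8 and Abcc9 correlated with r = 0.95, as a description over arrays that share scaling and pairing. This is near the median of 0.93 among members with a tested probe set. Among those members, each correlated least with Rgs5 (0.68 and 0.76). Next highest were Kcnj8 with Acta2 (0.88) and Abcc9 with Tbx18 (0.88). Their genes lie next to each other, Kcnj8 at chr6:142564837-142571614 and Abcc9 at chr6:142587862-142702766 (GRCm38.p6).

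Tbx18, a T-box transcription factor of mural cells, and Anpep, the surface peptidase aminopeptidase N of brain pericytes, complete the pericyte genes. Tbx18 had signals of 58.3, 69.1, 104 and 142 in Nestin-positive replicates 1, 3, 4 and 5, against 100.3, 284 and 470 in Nestin-negative replicates 1, 4 and 5 (brightest probe set). Nestin-negative replicate 1 lay between the dim and the brighter Nestin-positive arrays. Tbx18 fell by 1.32 ± 0.23 (SE) on the log2 scale with the block (adjusted p = 0.0053), or 2.50-fold, and 2.13-fold with dim values raised. The log2 change without the block was -1.44 ± 0.54 (SE, adjusted p = 0.443). Its second probe set was dim on all arrays but Nestin-negative replicates 4 and 5 and was not tested.

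Anpep had signals of 3.39, 4.35, 2.26 and 2.14 in Nestin-positive replicates 1, 3, 4 and 5, against 22.7, 28.4 and 6.38 in Nestin-negative replicates 1, 4 and 5. The fractions did not overlap, but every value was far under the array median, so no size is given to the difference. Its order among Nestin-negative arrays also differed from that of the other pericyte genes, with replicate 5 lowest rather than highest.

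The contractile genes split by brightness. Acta2, which encodes smooth muscle alpha-actin, had signals of 54.9, 66.3, 144 and 162 in Nestin-positive replicates 1, 3, 4 and 5, against 180.03, 606 and 913 in Nestin-negative replicates 1, 4 and 5 (brightest probe set). No Nestin-positive array reached a Nestin-negative one. Acta2 fell by 2.09 ± 0.19 (SE) on the log2 scale with the block, or 4.27-fold (adjusted p = 6.0e-05), and 3.57-fold with dim values raised, and its pairs of replicates 4 and 5 differed by 4.21-fold and 5.62-fold. In replicate 1 the Nestin-positive signal was dim. Without the block the log2 change was -2.27 ± 0.61 (SE, adjusted p = 0.264, the smallest of the 11). Its 2 other probe sets were dim on every array and disagreed in sign: one was higher in Nestin-positive cells in all 3 pairs, at signals of 1.16 to 15.4 in Nestin-positive and 0.921 to 3.41 in Nestin-negative arrays, and the other was lower in all 3. The name of the brightest carries the suffix that Affymetrix gives to probe sets that may read more than 1 transcript, and Acta2 has near-identical actin paralogs, so its signal is not certain to be Acta2 alone. The brightest Abcc9 probe set and the last of Rgs5 carry the same suffix. The Rgs5 probe set that fell 3.28-fold carries another suffix that warns of cross-reading, so these signals too are not certain to be of 1 gene.

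Tagln, the actin-binding protein transgelin, had signals of 3.24, 2.39, 24.7 and 19.4 in Nestin-positive replicates 1, 3, 4 and 5, against 12.7, 62.3 and 73.3 in Nestin-negative replicates 1, 4 and 5. It was lower in all 3 pairs, but only Nestin-negative replicate 5 reached the array median, with a signal of 73.29 against a median of 73.25. Myh11, the smooth muscle myosin heavy chain, had signals of 3.05, 7.20, 6.37 and 6.81 in Nestin-positive replicates 1, 3, 4 and 5, against 8.67, 11.0 and 17.2 in Nestin-negative replicates 1, 4 and 5 (brighter probe set). The fractions of Myh11 did not overlap on this probe set, and its other probe set ran the opposite way in the pair of replicate 5. As with Anpep, these signals are too low for a fold. In a blocked fit without the filter on dim values, Tagln, Myh11 and Anpep did not pass (adjusted p = 0.255, 0.656 and 0.234, on the brightest probe set of each).

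**Figure D2:**
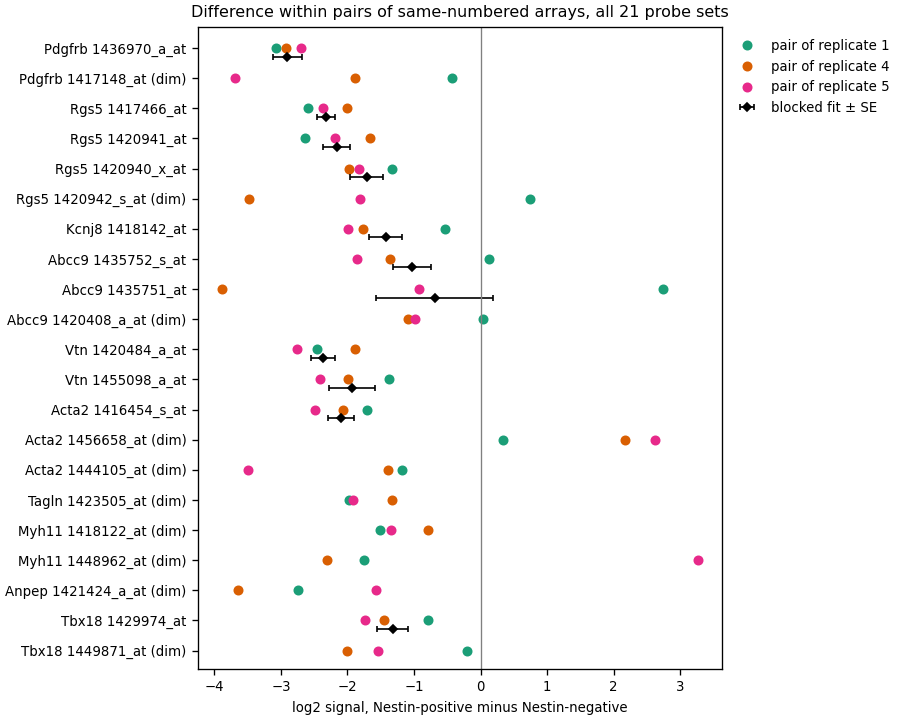
Log2 signal of the Nestin-positive array minus that of its same-numbered Nestin-negative array, for all 21 probe sets and the pairs of replicates 1, 4 and 5 (coloured points), with the blocked estimate and its SE (black) for the 11 tested. For the brightest probe sets of Pdgfrb, Rgs5, Vtn and Acta2 the points cluster well left of 0, whereas for Kcnj8 and the Abcc9 probe sets the pair of replicate 1 stands to the right of the other pairs. It does so too for the brightest probe sets of Acta2 and Tbx18 and for some dimmer ones.

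To set the genes side by side, the log2 signal of each member's brightest probe set was centred on its own mean over the 7 arrays and averaged over the 10 genes. This mean was -1.80, -1.62, -0.18 and -0.08 in Nestin-positive replicates 1, 3, 4 and 5, against -0.08, 1.75 and 2.00 in Nestin-negative replicates 1, 4 and 5. Nestin-negative replicate 1 was thus level with Nestin-positive replicates 4 and 5. The Nestin-positive minus Nestin-negative difference was -2.14, and -1.27 with dim values raised to the array median. The 7 pericyte genes gave -1.80, -1.70, -0.25 and -0.10 in Nestin-positive and -0.08, 1.90 and 2.04 in Nestin-negative arrays, in the same replicate order. Among the 45 pairs of members the correlation over arrays had a median of 0.88 and ran from 0.28 (Abcc9 with Anpep) to 0.99 (Pdgfrb with Vtn). Anpep was dim on every array. Among the 21 pairs of the 7 genes with a tested probe set, the median was 0.93 and the range 0.68 to 0.99.

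Of 23 other annotated mural and contractile genes, 11 were tested, with a median log2 change of -1.03. Without the block limma called 0 of them (2 at an unadjusted p under 0.05). With it 3 fell and 0 rose, or 27.3% of the tested genes against 3.13% of all probe sets called lower. These shares are a description, since the list was chosen with earlier results known and counts genes by their brightest probe set. The 3 were Mylk, the kinase that phosphorylates myosin light chain (-1.64 ± 0.27 SE), Higd1b, a gene of brain pericytes (-1.66 ± 0.32 SE), and Tpm2, a muscle tropomyosin (-1.22 ± 0.25 SE). The sizes of these falls are uncertain. Higd1b was dim on Nestin-positive replicates 1, 3 and 4 and on Nestin-negative replicate 1. Mylk and Tpm2 were dim on Nestin-positive replicates 1 and 3, and Mylk also on Nestin-negative replicate 1. Mylk had signals of 22.1, 29.3, 79.4 and 94.1 in Nestin-positive replicates 1, 3, 4 and 5, against 58.0, 233 and 371 in Nestin-negative replicates 1, 4 and 5, with the overlap seen for Pdgfrb. Notch3, a receptor of mural cells, differed by -0.96 ± 0.26 (SE) with the block (adjusted p = 0.0545), and Cspg4, a proteoglycan of pericytes and oligodendrocyte precursors, by -0.34 ± 0.21 (SE, adjusted p = 0.498). Srf, the factor of the CArG box, differed by 0.11 ± 0.11 (SE, adjusted p = 0.716), and Myocd, its coactivator, was dim on every array.

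Ligands and receptors through which vessel cells signal to each other were listed next. Of the 19 genes of the platelet-derived growth factor, TGF-beta, angiopoietin, Notch and related pathways, 14 were tested; they had a median log2 change of -0.20, and limma called 0 without the block (3 at an unadjusted p under 0.05), and with it 0 fell and 2 rose, where 1.31% of all probe sets tested were called higher. The 2 were the Notch ligand gene Jag1 (1.26 ± 0.12 SE) and the receptor gene Notch1 (0.80 ± 0.14 SE), which other cells express too. Pdgfb, the endothelial ligand of the Pdgfrb receptor, differed by -0.16 ± 0.37 (SE, adjusted p = 0.898), with signals of 44.4, 40.5, 56.4 and 74.8 in Nestin-positive replicates 1, 3, 4 and 5, against 35.5, 93.1 and 78.4 in Nestin-negative replicates 1, 4 and 5. The paralogous receptor gene Pdgfra differed by -0.17 ± 0.10 (SE, adjusted p = 0.477).

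Markers of microglia and of meningeal fibroblasts were also lower in Nestin-positive cells. Limma without the block called 0 genes of any marker list, with 9 microglia, 5 fibroblast, 1 astrocyte and 1 granule precursor genes at an unadjusted p under 0.05. Summed over the brightest probe set of each gene, the 11 annotated microglia and macrophage markers ranged from 321 to 1160 in Nestin-positive and from 2140.05 to 8262 in Nestin-negative arrays, and 9 of the 9 tested fell with the block. Of these, Lyz2 and C1qc passed the filter through the Nestin-negative arrays alone. C1qa, C1qb, Cx3cr1 and Fcer1g reached the median on only 1 Nestin-positive array. The counts of this list are therefore a description of these probe sets and no support for a difference. The 12 meningeal fibroblast markers ranged from 5797 to 9072 in Nestin-positive and from 7958 to 15523 in Nestin-negative arrays, and 5 of the 8 tested fell, among them Dcn, Lum and Col1a2. Over all probe sets tested, 3.13% were called lower with the block. The sum of the 15 endothelial markers ranged from 1007 to 3223 in Nestin-positive and from 1277 to 3539 in Nestin-negative arrays, and limma called 0 of the 11 tested in either fit. Their median log2 change was -0.46 without the block, with 0 at an unadjusted p under 0.05. It was -0.39 with the block, with 4 at an unadjusted p under 0.05, all of them lower: Esam, Emcn, Flt1 and Cldn5. Of that list Pecam1, Tie1 and Abcb1a were dim on every array. The sum of the 7 pericyte members ranged from 457 to 1726 in Nestin-positive and from 1094 to 8556 in Nestin-negative arrays, and was 2.40-fold, 3.91-fold and 5.09-fold lower in Nestin-positive cells in the pairs of replicates 1, 4 and 5. The endothelial sum was 1.27-fold, 1.03-fold and 1.49-fold lower in those pairs. Each sum is carried by the brightest probe sets of its list, so sums of different lists are not compared. Pdgfra, for example, supplied 2752 to 3234 of the fibroblast sum in Nestin-positive and 3321 to 3916 in Nestin-negative arrays, while Dcn, Lum and Igf2 of that list had blocked log2 changes of -1.94, -1.80 and -1.74. The part of these other cells in the members' values was not tested, and no test of the difference between lists was made.

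The 8 astrocyte markers summed to 5752 to 11032 in Nestin-positive and 4710.4 to 8872 in Nestin-negative arrays, and of the 7 tested 3 fell and 1 rose with the block. Over all probe sets tested, 3.13% were called lower and 1.31% higher. The 3 were Aqp4 (-1.69 ± 0.16 SE), Aldh1l1 (-1.28 ± 0.21 SE) and Aldoc (-0.86 ± 0.20 SE). For all 3 the fractions overlapped, and Nestin-positive replicate 3, which the blocked fit leaves out, was the highest Nestin-positive array. Aldh1l1 was 518 there, against 88.9, 360 and 493 in Nestin-negative replicates 1, 4 and 5. In limma without the block the log2 changes were -1.24, -0.70 and -0.62 (adjusted p = 0.752, 0.922 and 0.857). Slc1a2 rose (0.52 ± 0.10 SE) and supplied 3712 to 5712 of the sum in Nestin-positive and 2387 to 3254 in Nestin-negative arrays. All 3 annotated red blood cell genes were dim on every array. The 10 granule neuron precursor markers, which define the labelled cell type, were all tested, and their sum ranged only from 65455 to 72943 in Nestin-positive and from 71192 to 73862 in Nestin-negative arrays. Of these, 1 gene rose with the block, Barhl1 (0.42 ± 0.11 SE, adjusted p = 0.048). Nes itself, which checks the sort, was higher in Nestin-positive cells, at 478, 829, 722 and 543 in replicates 1, 3, 4 and 5, against 179, 174 and 217 in Nestin-negative replicates 1, 4 and 5.

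**Figure D3:**
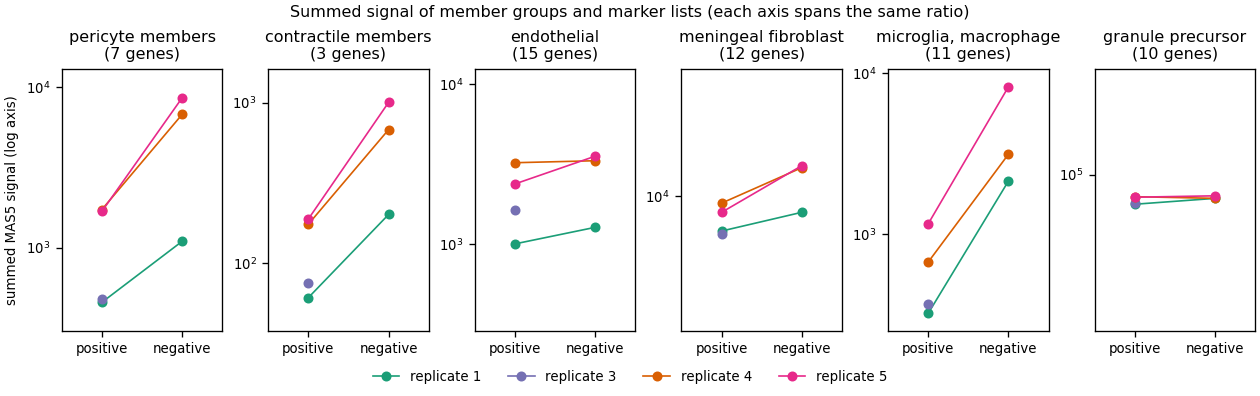
Summed MAS5 signal of the pericyte and contractile members and of 4 marker lists on each array (brightest probe set per gene, log axes that span the same ratio), with Nestin-positive arrays left of Nestin-negative arrays and lines joining same-numbered arrays. Every line of the member sums and of the endothelial, microglia and fibroblast sums climbs to the right, while the granule precursor line of replicate 4 falls slightly. Each sum is carried by the brightest probe sets of its list, so slopes are not compared between panels.

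Outside the members, 11082 genes with a tested probe set were ranked by their Pearson correlation over the 7 arrays with the mean of the 10 members. The 12 genes at the top had r between 0.978 and 0.992, and 4 of them stand in the lists above: Mylk among the mural genes, and the growth factor gene Igf2 and the matrix proteoglycan genes Dcn and Lum among the meningeal markers. Igf2 ranked first, with signals of 126, 148, 430.4 and 417 in Nestin-positive replicates 1, 3, 4 and 5, against 502, 1262 and 1313 in Nestin-negative replicates 1, 4 and 5, and did not overlap between fractions. Further genes with large differences were Pf4, a platelet and macrophage chemokine (log2 change -2.43 ± 0.26 SE with the block), and Col6a3, a collagen of connective tissue (-1.75 ± 0.27 SE). Lhfp changed by -1.58 ± 0.15 (SE). The other 5, Bet1l, Stradb, Tmem176b, Arf5 and Tmem229b, had blocked log2 changes of only -0.23 to -0.47 and did not pass. Correlation does not weigh the size of a change, and these genes were picked for their likeness, so their values are a description.

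**Figure D4:**
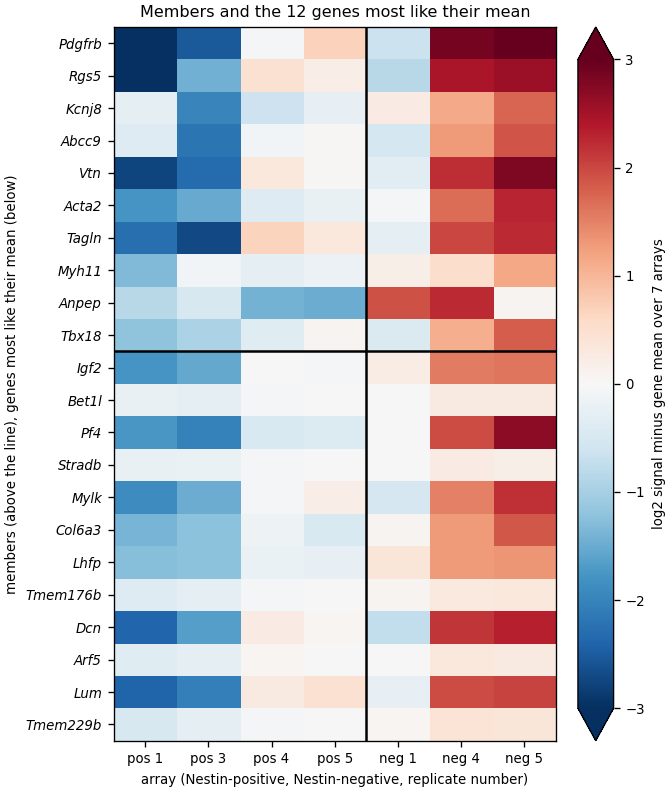
Log2 signal minus each gene's mean over the 7 arrays (colour, red above and blue below the mean, saturating at the ends of the scale) for the 10 members and the 12 genes most like their mean; Nestin-positive arrays are left of the vertical line and Nestin-negative arrays right of it. Nestin-positive replicates 1 and 3 are the bluest columns for most members, Nestin-negative replicates 4 and 5 the reddest, and Anpep breaks the pattern with pale colour on Nestin-negative replicate 5.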

How the data were processed

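Per the labels' protocols, RNA of the sorted cells was biotin-labelled and read on Affymetrix Mouse 430 2.0 arrays (1 colour). Per the submitters' processing notes, the deposited values are linear MAS5 signal intensity, for which no software version was found. On each of the 7 arrays the mean without the lowest and highest 2% was 500.0, and no other normalization by the authors was apparent. Samples were grouped by title, which also gives the replicate number. Log2 was taken without a pseudocount. Of 45101 probe sets 64 controls were left out, and 23585 reached the array median on at least 3 arrays. Symbols were updated by Entrez ID through RefSeq (34741 of 34945 single-gene probe sets matched).

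Version 3.58.1 of limma, run in R 4.3.3 with an intensity trend in eBayes and two-sided p-values, compared the fractions on all 7 arrays, with Benjamini-Hochberg adjustment over all probe sets tested; the brightest probe set stood for a gene in lists. The scripts were tested on simulated data. As a check of pairing, each array's deviation from its group mean was set against that of its same-numbered partner, and r was 0.85, 0.63 and 0.57 in replicates 1, 4 and 5, across probe sets that are not independent, all over the limit of 0.1, so the numbers were taken to pair the arrays, from the data alone. Differently numbered arrays lay between -0.66 and 0.42. Over the limit too were Nestin-positive replicate 5 with Nestin-negative replicate 4 (0.42), 4 with 5 (0.38) and 3 with 1 (0.19). The limit alone therefore does not tell the partners of replicates 4 and 5 apart, although each same-numbered r was the highest for its arrays. The blocked fit rests on these 3 pairs, without Nestin-positive replicate 3, with 2 residual degrees of freedom (13.4 after moderation). The members and gene lists were chosen with earlier results of these data known. Named beside the members are up to 4 genes per list by p-value, genes that signal to or regulate members, and the 12 genes most like their mean. Other genes were chosen after their values were seen. The number of arrays limits the precision.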

Additional observations from a re-analysis of the deposited data

Results flagged for a closer look

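In the Nestin-positive fraction, the brighter Myh11 probe set had 1 array far from the rest: replicate 1 had a signal of 3.05, against 6.37 to 7.20 on the other 3 arrays, and the gap to its nearest neighbour was 0.857 of the whole log2 range. All 4 signals are far under the array median. Of the 21 member probe sets examined this was the only one past Dixon's limit for 4 arrays, and about 1 in 20 would pass it by chance. The Nestin-negative fraction, with 3 arrays, was not examined.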

How the results depend on the processing

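The call of the members depends on the replicate block. Without it, limma called 0 member probe sets, also under quantile normalization, with dim values raised to the array median, with a pseudocount of 50, without the filter, without the intensity trend, with 1 probe set per gene and without each array in turn. Over all probe sets these settings also gave 0, except that 1 probe set per gene gave 83 calls (64 lower, 19 higher), none of them a member. With the replicate block, 1049 probe sets were called, 9 of them members. Leaving out each pair, chosen after seeing the data like the 2 settings that follow, gave 953, 1820 and 1168 calls without replicates 1, 4 and 5, of which 11, 10 and 9 were members. With 2 pairs left, these calls rest even more than those of 3 pairs on the variance shared over all probe sets, and hardly on that of each one. The blocked fit without the filter gave 692 calls and 9 members, and that with dim values raised 873 and 9. The largest count, 1820, came without the pair of replicate 4. The cause of these shifts was not tested. All log2 changes of the 11 tested probe sets kept their sign in every setting that was run, except that of the second Abcc9 probe set in brightness, which was 0.91 (adjusted p = 0.472) with the block and without the pair of replicate 4. The mean over the 10 members, whose alternatives other than the mean of all probe sets of a gene were also added after seeing the data, stayed between -2.79 (without Nestin-negative replicate 1) and -1.16 (blocked, dim values raised). Signals under the array median limit the sizes of all folds.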
